A study of Mus musculus with 2 samples.

Results

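The insulin receptor signalling genes Insr, Irs1, Irs2, Pik3r1, Akt2, Foxo1 and Slc2a4 were examined for DNA methylation peaks in the epididymal fat of male mice of the inbred strain C57BL/6J. This white adipose tissue is a visceral depot near the testis. Mice were placed at 4 weeks of age on a high-fat diet (HFD) that supplied 60% of energy as fat, or on regular chow (STD), and were kept on it for 5 months. Methylation was profiled by MeDIP-seq, in which an antibody against 5-methylcytosine captures methylated DNA fragments for sequencing, and peaks are the stretches where such fragments pile up. Each diet has 1 library, and how many mice were combined in it is not stated in the labels. Differences between diets therefore have no replicate behind them and were not tested. Peaks were taken as members when they overlapped, by at least 1 bp, one of 7 windows of the mouse build mm9 that hold the gene with about 10 kb on each side. This gave 62 of 175767 HFD peaks and 56 of 166432 STD peaks on chromosomes 1 to 19, X and Y.

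Insulin binding activates the receptor, which phosphorylates the adaptors IRS1 and IRS2. These recruit PI3-kinase through its regulatory subunit, and the lipid it makes activates AKT2. In adipocytes AKT2 drives the glucose transporter GLUT4, the product of Slc2a4, to the cell surface and keeps the transcription factor FOXO1 out of the nucleus. Loss of this response is the insulin resistance that accompanies obesity. Methylation at CpG sites near gene starts is commonly low where a promoter is CpG-rich, and methylation within gene bodies is common in mammalian DNA. In whole fat tissue a change in the mix of cells and a change within 1 cell type cannot be told apart.

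The position of each gene start was taken as 10 kb inside the window edge (the nominal start), because no gene annotation on mm9 was used here. The windows exceeded the RefSeq gene lengths in build GRCm38.p6 by 20.5 to 23.2 kb, the largest excess being at Foxo1, so the nominal start can be off by a kilobase or more, and at Foxo1 by up to 3.23 kb if all of the excess lies on 1 side. Insr, Irs1, Irs2, Pik3r1 and Slc2a4 were read toward lower coordinates, and Akt2 and Foxo1 toward higher ones. For Insr and Slc2a4 this direction is textbook knowledge, taken from no table used here, and every distance from their nominal starts depends on it. RefSeq promoter sequences were matched for 5 of the 7 genes, all but Insr and Slc2a4. They run from 250 bases before to 50 after the gene start. CpG sites were searched as CG, which reads the same on both strands, and 94.6% of the 32851 promoters in the table held at least 1. The table's median was 7 CG per promoter. Of the outermost starts, Irs2 held 41, Pik3r1 34, Foxo1 31, Irs1 28 and Akt2 12, more than in 96.5%, 92.3%, 89.4%, 85.8% and 60.4% of promoters. Of these, 3 are shown because they hold the highest and the lowest CG number and because both adaptor genes are among them, with each CG in capitals, 5′ to 3′, on GRCm38.p6, whose coordinates do not apply to the mm9 peaks below.
Irs1, chr1:82291390-82291689, minus strand: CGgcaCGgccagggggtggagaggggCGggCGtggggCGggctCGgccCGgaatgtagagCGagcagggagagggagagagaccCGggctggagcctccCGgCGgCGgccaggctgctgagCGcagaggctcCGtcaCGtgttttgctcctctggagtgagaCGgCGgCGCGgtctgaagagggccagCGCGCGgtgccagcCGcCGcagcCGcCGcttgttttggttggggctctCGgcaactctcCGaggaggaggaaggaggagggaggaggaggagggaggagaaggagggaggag
Irs2, chr8:11008880-11009179, minus strand: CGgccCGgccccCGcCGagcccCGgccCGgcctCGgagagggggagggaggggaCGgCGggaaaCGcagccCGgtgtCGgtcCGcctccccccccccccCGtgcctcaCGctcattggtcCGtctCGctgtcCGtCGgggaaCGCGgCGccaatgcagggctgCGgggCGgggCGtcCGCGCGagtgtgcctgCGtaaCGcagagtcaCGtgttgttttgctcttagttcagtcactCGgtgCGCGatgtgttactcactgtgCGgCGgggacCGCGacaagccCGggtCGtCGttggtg
Akt2, chr7:27591302-27591601, plus strand: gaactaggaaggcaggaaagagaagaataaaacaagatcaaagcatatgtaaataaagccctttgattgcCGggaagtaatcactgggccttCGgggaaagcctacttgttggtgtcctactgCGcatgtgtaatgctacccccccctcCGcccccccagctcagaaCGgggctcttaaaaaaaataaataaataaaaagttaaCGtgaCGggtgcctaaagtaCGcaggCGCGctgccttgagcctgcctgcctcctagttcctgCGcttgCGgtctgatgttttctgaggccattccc

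Most peaks of the 7 windows were present with either diet. Of the HFD peaks, 47 of 62 (75.8%, exact 95% interval 63.3 to 85.8) overlapped an STD peak by at least 1 bp, and of the STD peaks 45 of 56 (80.4%, interval 67.6 to 89.8) overlapped an HFD peak. Such an overlapping peak of the other list is called a partner. Over all chromosomes the shares were 69.7% for HFD peaks and 73.5% for STD peaks, both within those intervals. The peaks without a partner were 15 of 62 HFD peaks (24.2%) and 11 of 56 STD peaks (19.6%), against a background of 30.3% of all HFD peaks and 26.5% of all STD peaks. The HFD to STD ratio of peak number was 1.11 (interval 0.759 to 1.62), against 1.06 over all chromosomes, and its interval includes 1. The intervals reflect counting error alone, as if peaks were independent.

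Taken as separate loci, 45 of 71 (63.4%) were covered with both diets, 15 with HFD only and 11 with STD only. The same share was not computed over all chromosomes, so whether 63.4% is usual was not assessed. There were more HFD than STD peaks in 5 windows, fewer in 1, Irs1, and equal numbers in 1, Pik3r1. The widest gap in number was at Foxo1, with 12 HFD peaks and 8 STD peaks. In the other direction stood Irs1, with 7 HFD peaks and 9 STD peaks. In the windows described below, counts of peaks without a partner stand against the same 30.3% of all HFD peaks and 26.5% of all STD peaks.

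**Figure D1:**
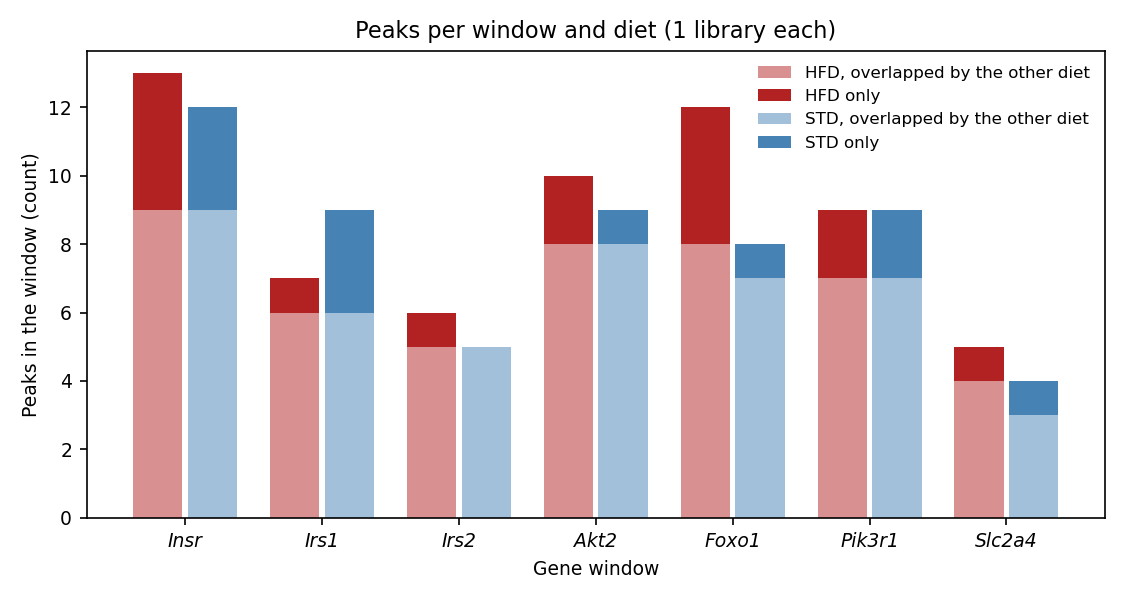
Number of MeDIP-seq peaks (y axis, count) in each of the 7 gene windows, with the HFD bar on the left and the STD bar on the right. Pale parts are peaks overlapped by a peak of the other diet and dark parts are peaks found with 1 diet; Foxo1 shows 12 HFD against 8 STD peaks and Irs1 shows 7 against 9.

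**Figure D2:**
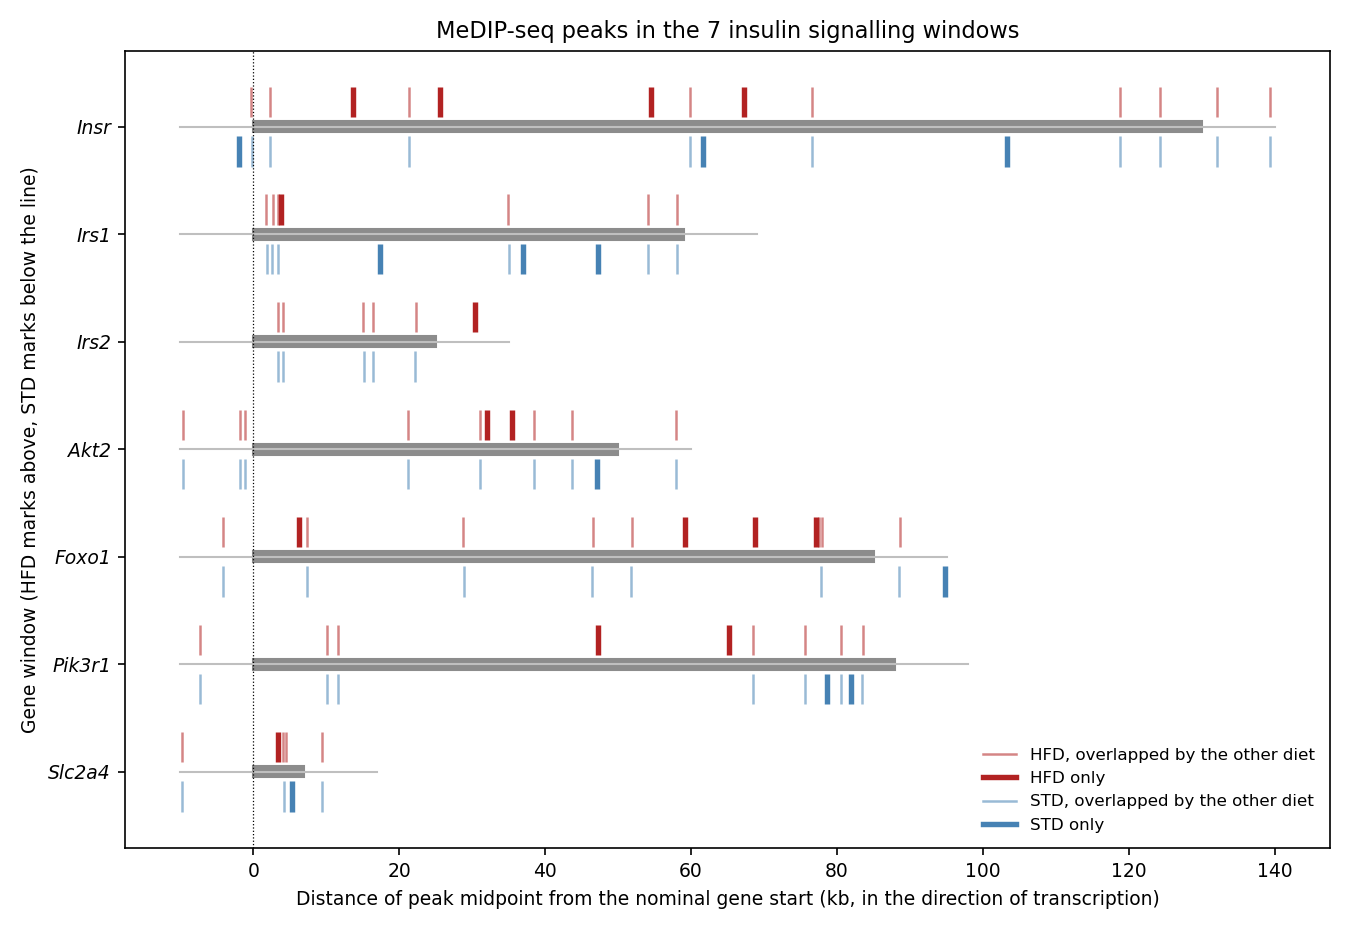
Midpoints of peaks along each window, by distance from the nominal gene start in kb in the direction of transcription, with HFD marks above and STD marks below each line. The grey bar is the nominal gene and the thin line the 10 kb flanks. Thin marks have a partner and thick marks have none; mark thickness is not peak width. Marks stand near the start of Insr, Irs1 and Akt2, and the nearest marks to the starts of Irs2, Foxo1, Pik3r1 and Slc2a4 are over 3 kb away.

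The receptor gene Insr, which encodes the insulin-binding tyrosine kinase, had a peak pair almost at its nominal start. Its window on chromosome 8, from 3140 to 3290 kb, held 13 HFD peaks and 12 STD peaks, of which 9 in each list had a partner. The pair at the start spanned 3280023 to 3280543 with HFD, a width of 521 bp, and 3280055 to 3280356 with STD, a width of 302 bp. The HFD peak was 1.73 times as wide and enclosed the whole STD peak. An STD peak without a partner lay further upstream, from 3281757 to 3282052, 1.21 kb from the nearest HFD peak. In the gene itself, the widest pair was 666 bp with HFD (3203055 to 3203720) and 538 bp with STD (3203142 to 3203679). HFD peaks without a partner numbered 4 and the widest was 348 bp, from 3266104 to 3266451, 7.25 kb from an STD peak. STD peaks without a partner numbered 3, and the widest, 307 bp from 3176568 to 3176874, was 15.0 kb from an HFD peak. Insr thus combined 1 pair at the nominal start that was broader with HFD with scattered peaks of 1 diet along the gene. Its window exceeded the gene and 2 flanks by 1.27 kb, so the pair may lie further from the true start. Among its 9 pairs the HFD peak was wider in 4 and narrower in 5, with a median difference of -32 bp. Over all chromosomes, HFD minus STD widths of pairs with 1 partner on each side ran from -845 to 816 bp (quartiles -49 and 32). The longest stretch of the Insr window without a peak of either list was 28.6 kb, between 25.8 and 54.4 kb downstream of the nominal start.

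Irs1, the adaptor through which the receptor signals to PI3-kinase, was the only one of the 7 windows with fewer HFD than STD peaks. On chromosome 1 from 82219 to 82298 kb there were 7 HFD peaks and 9 STD peaks, 6 of each with a partner. HFD peaks covered 2212 bp and STD peaks 3409 bp. Among the 6 pairs the HFD peak was the narrower in 5, with a median difference of -120.5 bp. Over all chromosomes it was the narrower in 67407 of 120322 pairs with 1 partner on each side, with a median difference of -8 bp. The Irs1 pair with the largest difference, 35.1 kb downstream of the nominal start by its STD midpoint, was 263 bp with HFD (82253022 to 82253284) and 535 bp with STD (82252682 to 82253216). The single pair in which the HFD peak was broader was 284 bp against 267 bp, 3.39 kb downstream of the nominal start.

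Peaks of Irs1 gathered in its first 5 kb, which held 4 HFD peaks with a summed width of 1333 bp and 3 STD peaks with 1232 bp. The peak nearest to the start spanned 304 bp with HFD (82286048 to 82286351) and 416 bp with STD (82285853 to 82286268), 1.65 and 1.73 kb from the nominal start. Next was the widest pair of the window, 353 bp with HFD (82285126 to 82285478) and 549 bp with STD (82285143 to 82285691). The fourth HFD peak, 392 bp from 82283994 to 82284385, had no partner by the rule, yet an STD peak lay 0.076 kb away. The cluster was thus present with both diets. STD peaks without a partner numbered 3, and the widest was 326 bp, from 82250865 to 82251190, 1.83 kb from an HFD peak. Upstream of the nearest peak, 27.8 kb held no peak of either list, and the promoter shown above lies by its nominal position in that stretch.

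Irs2, the second main IRS adaptor, had the broadest peak among the 7 windows, and its lists nearly coincided apart from 1 HFD peak. Its window on chromosome 8, from 10974 to 11019 kb, held 6 HFD peaks and 5 STD peaks. Each of these 5 STD peaks had a partner, against 73.5% of STD peaks over all chromosomes. The broadest pair measured 929 bp with HFD (10986260 to 10987188) and 889 bp with STD (10986329 to 10987217), near the nominal end of the gene at 22.3 kb and 22.2 kb downstream. A second broad pair, 639 bp with HFD (11004602 to 11005240) and 653 bp with STD (11004541 to 11005193), lay 4.08 and 4.13 kb downstream of the nominal start. Width differences of the 5 pairs ranged from -14 to 47 bp. The HFD peak without a partner, 457 bp from 10978446 to 10978902, lay in the downstream flank, 7.43 kb from an STD peak. Of all HFD peaks without a partner, 0.779% were both at least as wide and at least as far from an STD peak. That share describes the peak and is not a test. Around the nominal start of Irs2, 14.3 kb held no peak of either list, from 11.1 kb upstream to 3.21 kb downstream. The Irs2 promoter printed above, the one with 41 CG, belongs to this stretch by its nominal position.

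**Figure D3:**
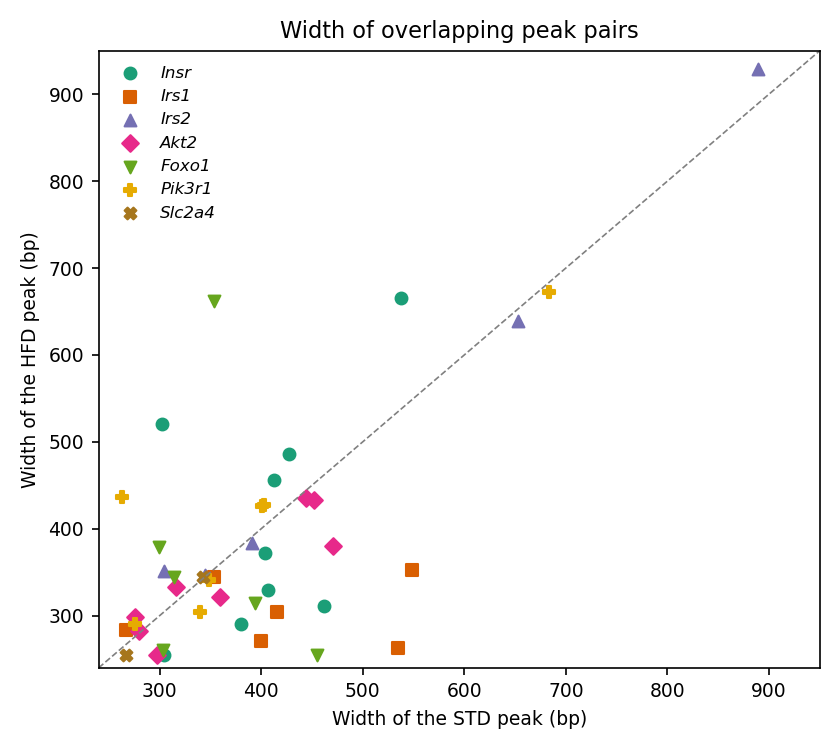
Width of the HFD peak (y axis, bp) against that of the STD peak (x axis, bp) for the 43 pairs with 1 partner on each side, by gene; the axes do not start at 0 and the dashed line marks equal widths. Of the 6 Irs1 pairs 5 lie below the line, and the 5 Irs2 pairs lie close to it, from -14 to 47 bp.

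Pik3r1 encodes the p85alpha regulatory subunit of PI3-kinase, and shorter forms from inner starts. Its window on chromosome 13, from 102440 to 102548 kb, held 9 HFD peaks and 9 STD peaks, 7 of each with a partner. Most lay in the distal part of the nominal gene, and a few lay closer to the start. The widest pair, 672 bp with HFD (102454173 to 102454844) and 683 bp with STD (102454191 to 102454873), was 83.5 kb downstream of the nominal start. A pair 75.6 kb downstream was 437 bp with HFD (102462165 to 102462601) and 263 bp with STD (102462273 to 102462535), which is the minimum width of the STD list. No peak lay within 2 kb of the nominal start, and 17.1 kb around it were free of peaks, from 7.21 kb upstream to 9.94 kb downstream. RefSeq also lists an inner start of Pik3r1. On GRCm38.p6 its promoter spans 101692581 to 101692880, and that of the outermost start 101768168 to 101768467. The spacing is close to the 75.6 kb of the pair above. Whether that pair lies at the inner start on mm9 was not tested.

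The broadest peak found with 1 diet in the 7 windows was an HFD peak in Pik3r1, 539 bp from 102490463 to 102491001. It lay 47.3 kb downstream of the nominal start and 20.8 kb from the nearest STD peak. Among the 53174 HFD peaks without a partner on all chromosomes, 1.16% were at least as wide, 8.12% at least as far from an STD peak, and 0.0715% both. This is the lowest such share among the 26 peaks without a partner in the windows, of which it is also the broadest. The others ran from 0.779% to 71.4%, each within its own list. Because the peak was picked by its width, these shares describe it and are not a test. With STD, the widest peak without a partner in this window was 319 bp, from 102459261 to 102459579, at 1.67 kb from an HFD peak.

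Akt2, the AKT kinase that predominates in insulin-responsive tissue, carried a pair of shared peaks just upstream of its nominal start. On chromosome 7 from 28366 to 28436 kb there were 10 HFD peaks and 9 STD peaks, 8 of each with a partner. The nearer peak spanned 282 bp with HFD (28374723 to 28375004) and 280 bp with STD (28374773 to 28375052), 0.996 and 0.948 kb upstream. The other spanned 299 bp with HFD (28374067 to 28374365) and 276 bp with STD (28374082 to 28374357). These upstream peaks had nearly the same extent with both diets. In the RefSeq table Akt2 has a protein-coding neighbour within 10 kb, 2310022A10Rik, and the peaks were not assigned to either gene. From the nearer pair onward, 21.9 kb held no peak of either list, up to 20.9 kb downstream of the nominal start. The widest pair by summed width was 433 bp with HFD (28366116 to 28366548) and 452 bp with STD (28366120 to 28366571), at the outer edge of the upstream flank. The widest single peaks of the window were 435 bp with HFD (28406823 to 28407257) and 471 bp with STD (28396933 to 28397403), and both had a partner. Peaks without a partner were narrow: the HFD list had 2, of 273 and 276 bp (28411301 to 28411576), and the STD list 1 of 265 bp (28422990 to 28423254).

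Foxo1, a transcription factor that AKT inactivates in fed cells, had the largest share of HFD peaks without a partner, 4 of 12 (33.3%), close to the 30.3% of all HFD peaks. Of its 8 STD peaks 1 had no partner, against 26.5% of all STD peaks. HFD peaks covered 4252 bp and STD peaks 3063 bp of the window from 52062 to 52167 kb on chromosome 3. The widest pair was 662 bp with HFD (52123572 to 52124233) and 354 bp with STD (52123626 to 52123979), the largest excess in HFD width among the 43 pairs with 1 partner on each side (308 bp). In the opposite sense, the pair from 52118403 to 52118657 (HFD) and 52118215 to 52118669 (STD) was 255 bp against 455 bp. The widest HFD peak without a partner was 428 bp, from 52130925 to 52131352, 6.95 kb from an STD peak. Another of 392 bp, from 52140572 to 52140963, was 8.45 kb from one. The STD peak without a partner, 263 bp from 52166673 to 52166935, ended 0.065 kb inside the window edge. Upstream of the nominal start the diets were alike, with a peak pair at 3.96 kb (HFD) and 4.00 kb (STD). No peak of either list lay within 2 kb. On the downstream side the first peak was an HFD peak without a partner, 261 bp from 52078129 to 52078389. It began 6.13 kb from the nominal start and lay 0.793 kb from an STD peak.

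Slc2a4, which encodes GLUT4, has the smallest window, from 69746 to 69773 kb on chromosome 11, with 5 HFD peaks and 4 STD peaks. Peaks lay within the nominal gene, in the downstream flank and at the outer edge of the upstream flank, while 12.9 kb around the nominal start, 47.7% of the window, had no peak of either list. An STD peak of 648 bp, from 69758405 to 69759052, was met by 2 HFD peaks of 337 bp (69758352 to 69758688) and 338 bp (69758796 to 69759133). Beside these, an HFD peak of 297 bp from 69759461 to 69759757 and an STD peak of 266 bp from 69757498 to 69757763 had no partner, and each was within 1 kb of a peak of the other list (0.408 and 0.588 kb). The widest pair with 1 partner on each side was 345 bp with HFD (69753345 to 69753689) and 343 bp with STD (69753367 to 69753709). The RefSeq table places Ybx2, a protein-coding gene, within 10 kb of Slc2a4, and peaks of the flanks were not assigned to either.

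Peaks near the gene starts were then set side by side. Within 2 kb of the nominal starts there were 4 HFD peaks and 5 STD peaks in all. They belonged to Insr (1 HFD and 2 STD), Irs1 (1 and 1) and Akt2 (2 and 2), and 4 in each list had a partner. None lay there at Irs2, Foxo1, Pik3r1 or Slc2a4 with either diet. Only 1 nominal start per gene was used. Inner starts, which RefSeq lists for Akt2 and Pik3r1, were not counted. Several of the counted peaks had midpoints close to the 2 kb limit, at 1.78 to 1.94 kb. Since the nominal starts can be off by a kilobase or more, these counts and the densities below are approximate. Per 100 kb the density was 14.3 (HFD) and 17.9 (STD) within 2 kb of the starts, and 11.0 and 9.46 over the nominal genes, and counting intervals of these values overlapped (3.89 to 36.6 and 5.80 to 41.7 near the starts, 8.16 to 14.6 and 6.82 to 12.8 over the genes). Set against any point of the same chromosome, a stretch without peaks around a start was not unusual. Points were not matched to gene starts or CpG content, so whether it is usual for such starts was not tested. Counted by number and not by span, most stretches were shorter. Their median was 5.05 to 6.14 kb by chromosome, below the stretch at every nominal start but that of Insr (2.14 kb). On chromosome 8, 57.9% of the span lay in peak-free stretches at least as long as that of Irs2. The corresponding value was 55.3% on chromosome 11 for Slc2a4, 55.6% on chromosome 13 for Pik3r1 and 76.8% on chromosome 3 for Foxo1. For the stretches that hold the other nominal starts it was 47.5% for Irs1, the lowest, 54.4% for Akt2 and 93.8% for Insr. Absence of a peak is not absence of methylation, since read depth is unknown.

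The peaks found with 1 diet lay mainly over the nominal genes, which make up 444 of 584 kb. There 14 of the 15 HFD peaks without a partner and 9 of the 11 STD peaks without a partner were found, beside 35 of the 47 HFD and 33 of the 45 STD peaks with one. Peaks without a partner were narrower than those with one, at a median of 297 bp against 345 bp with HFD and 271 bp against 391 bp with STD. Over all chromosomes the medians were 281 against 345 bp and 290 against 354 bp. Of the 7 HFD peaks over 500 bp in the windows 6 had a partner, as did all 8 such STD peaks, against 94.2% and 94.3% over all chromosomes. Across the 43 pairs with 1 partner on each side, the HFD peak was wider in 19 (44.2%) and narrower in 24. Over all chromosomes it was wider in 43.3% of 120322 such pairs. The median difference was -9 bp in the windows (quartiles -45.5 and 24.5), against -8 bp over all chromosomes. The narrowest peak of the lists was 255 bp with HFD and 263 bp with STD.

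Some broad STD peaks were met by 2 HFD peaks. Of the 56 STD peaks this held for 2 (3.57%, exact interval 0.435 to 12.3), against a background of 0.51% of all STD peaks, a contrast noticed after the values had been seen. In the other direction, 0 of the 62 HFD peaks overlapped 2 or more STD peaks, against 0.351% of all HFD peaks. One of the STD peaks is the 648 bp peak of Slc2a4 described above. The other is in Foxo1, 77.8 kb downstream of the nominal start, where an STD peak of 681 bp (52149412 to 52150092) was met by HFD peaks of 274 bp (52149424 to 52149697) and 377 bp (52149811 to 52150187). A further HFD peak of 303 bp lay 0.171 kb from that STD peak and counted as having no partner.

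Each window was compared with its surroundings, the 500 kb on each side of it. For Insr only the distal side could be used, since its first peaks were also the first of chromosome 8 in both lists. Together the windows held 10.6 HFD peaks per 100 kb, against 10.9 in the surroundings, a ratio of 0.973 (interval 0.738 to 1.26). For STD the values were 9.59 and 11.1 per 100 kb, a ratio of 0.864 (interval 0.647 to 1.14). Both intervals include 1. In the surroundings 74.2% of 709 HFD peaks and 72.8% of 721 STD peaks had a partner, within the intervals of the windows, and HFD peaks were 0.983 times as many as STD peaks (interval 0.885 to 1.09).

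By gene, the ratios to the surroundings lay on either side of 1. Irs1 was denser than its sparse surroundings, with 8.86 HFD peaks per 100 kb against 4.70 (ratio 1.89, interval 0.719 to 4.20) and 11.4 STD peaks against 5.00 (ratio 2.28, interval 0.985 to 4.68). Pik3r1 also lies in a sparse region and had ratios of 1.44 (HFD) and 1.37 (STD). Insr was below its surroundings, with ratios of 0.657 (HFD) and 0.678 (STD), and so was Foxo1, with 0.757 (HFD) and 0.569 (STD). For Irs2 the ratios were 1.14 and 0.896, for Akt2 1.08 and 0.875, and for Slc2a4 1.34 and 1.01. All 14 intervals include 1, so no window was distinguishable from its surroundings at these counts.

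**Figure D4:**
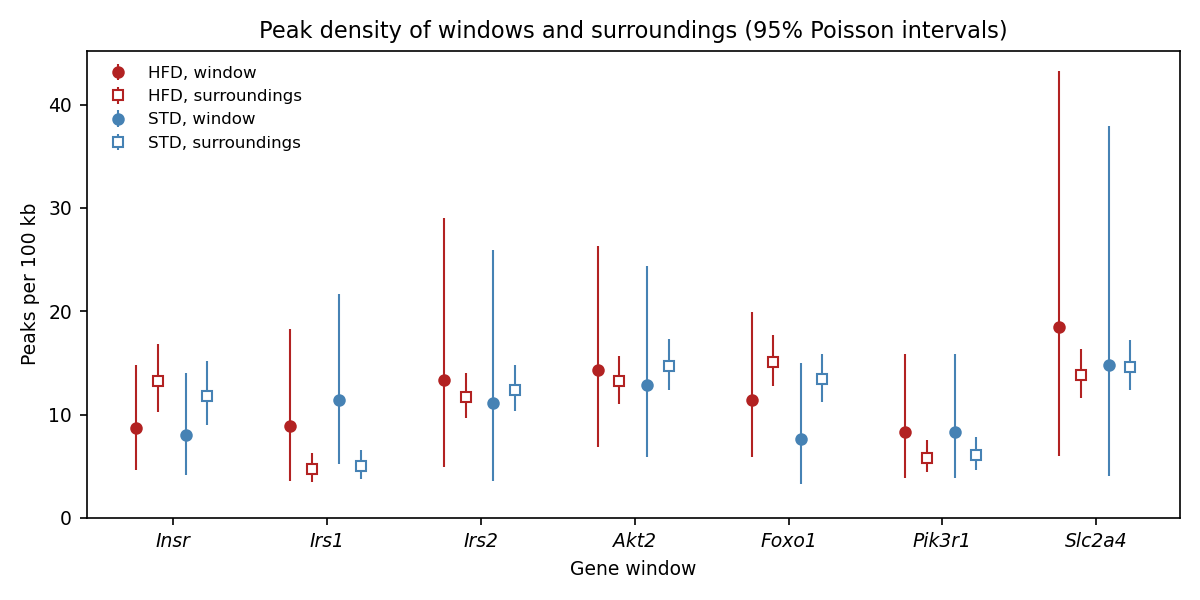
Peaks per 100 kb (y axis) in each gene window (filled circles) and in its surroundings (open squares), HFD in red left of STD in blue, with exact 95% Poisson intervals for counting error. Irs1 and Pik3r1 lie above sparse surroundings of 4.70 to 6.10 peaks per 100 kb and Insr and Foxo1 below theirs, and the intervals of window and surroundings overlap in every case.

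Set against all consecutive windows of the same length on its chromosome, every gene window held more peaks than the median. Akt2 had 10 HFD and 9 STD peaks against medians of 4 and 3, more than 86.2% and 83.4% of 2134 such windows. Irs1 exceeded 67.9% (HFD) and 81.7% (STD) of windows, and Foxo1 80.7% and 66.0%. Slc2a4 exceeded 84.5% and 74.3%, Irs2 72.8% and 67.4%, Pik3r1 59.4% and 62.9%, and Insr 54.8% and 55.5%. The consecutive windows span the chromosome whatever its gene content, so they are not matched to gene windows. Against the nearer surroundings the pooled ratios were 0.973 (HFD) and 0.864 (STD), with intervals that include 1. No peak crossed a window edge. The nearest peak outside was an HFD peak 0.282 kb beyond the upstream edge of Insr, and the nearest inside was the STD peak of Foxo1, 0.065 kb from its edge.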

How the data were processed

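The authors deposited 1 peak list per library, with chromosome, start, end and peak name. These deposited positions, in bp, are the only measurements, with no score or height. Per the submitters' processing notes, reads were aligned with BWA to mm9. The sources used here do not give the peak caller, its threshold, an input control or pooling, and depth is unknown. Gene windows were set as mm9 positions together with the choice of genes; members and lists were chosen with earlier results of these data known. Other genes of the pathway had no mm9 position here and were not analysed. Promoter sequences, gene lengths and neighbours came from RefSeq tables on GRCm38.p6, and no coordinates were converted.

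Partners needed 1 bp of overlap, and their numbers were identical with bedtools 2.31.1. Intervals are exact 95% binomial intervals (Clopper-Pearson), or Poisson intervals for densities, and cover counting error only. With 1 library per diet no test was run. Named by rule are, in each window, the widest pair, the widest peak of each list that has no partner, and peaks within 2 kb of the nominal start; other peaks were chosen after their values were seen. Code in Python 3.11.15 (matplotlib 3.10.9, scipy 1.17.1, pandas 2.3.3, numpy 2.4.6) was tested on simulated data. Alternatives were other overlap rules, wider peaks only, midpoints, window and surrounding extents, covered bases and leaving out each window.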

Additional observations from a re-analysis of the deposited data

How the results depend on the processing

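None of 76 recomputed values left the counting interval of the value in the text. The HFD to STD ratio of peak number ranged from 1.03 (peaks of at least 300 bp) to 1.17 (without the Irs1 window), and was 1.04 without the Foxo1 window. The share of peaks with a partner ranged from 65.7% to 80.6% for HFD and from 71.0% to 83.0% for STD, lowest when both lists were cut to equal numbers of their widest peaks. The density against surroundings ranged from 0.905 to 1.12 for HFD, on both sides of 1, and from 0.763 to 0.954 for STD. Merging peaks across gaps of up to 500 bp, chosen after seeing the data, gave a ratio of 1.04 and shares of 77.8% (HFD) and 78.8% (STD). With 118 peaks and wide intervals this says little about stability. No paired analysis was possible because there is a single library per diet; for the same reason no replicate was left out.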

Other observations

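Of the peaks without a partner, 5 of 15 HFD peaks and 1 of 11 STD peaks lay within 1 kb of a peak of the other list, against 18.5% and 19.9% of all such peaks over all chromosomes. The median distance was 3.91 kb for HFD and 1.83 kb for STD, against 3.60 and 3.24 kb over all chromosomes.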
